A study of Mus musculus with 3 samples.

Results

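Mcpt8-high cells are the 270 cells, of 11132 in the series, that held 10 or more raw UMIs (unique molecular identifiers, 1 per captured transcript) of Mcpt8, a granule protease of mouse basophils. They made up 2.43% of all cells, 98 of them in the female library and 172 in the male one. The cells were bone marrow cells of wild-type C57BL/6 mice labelled as modified GMP, a sorted population named after granulocyte-monocyte progenitors, and were profiled by CITE-seq, which counts transcripts and antibody tags in the same cells. Marrow was enriched for CD117, the KIT receptor protein, before sorting, so the cells seen are those that this enrichment and the sort kept. Both libraries share the genotype and strain and carry no treatment, and the age and number of the mice are not known here. The Mcpt8-high cells were set against 725 cells, 281 female and 444 male, that the authors' clustering labelled Multi-Lin and that held 0 Mcpt8 UMIs, and against 42 cells, 16 female and 26 male, with 10 or more UMIs of the eosinophil granule gene Prg2 and under 10 of Mcpt8.

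Basophils are rare granulocytes that store histamine and serine proteases in granules and release them when IgE bound to the receptor FcεRI is cross-linked. The receptor is built from an α chain that binds IgE (Fcer1a), a β chain (Ms4a2) and a γ chain shared with other Fc receptors (Fcer1g). Interleukin-3 expands basophils, GATA2 and C/EBPα are transcription factors of their branch in mice, and mature mast cells keep surface KIT whereas mature basophils have little of it.

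The promoter windows of 3 of the 4 genes that mark these cells are shown because Gata2, the marker that encodes a GATA factor, belongs to a family that binds GATA-containing letters. They are RefSeq windows of build GRCm38.p6, 250 bases before to 50 after a gene's start, read along the gene's strand, and capitals mark AGATAA or TGATAA on either strand. The Mcpt8 window lies at chr14:56085148-56085447 on the minus strand, the Prss34 window at chr17:25298144-25298443 on the plus strand and the Ms4a2 window at chr19:11623670-11623969 on the minus strand.
Mcpt8: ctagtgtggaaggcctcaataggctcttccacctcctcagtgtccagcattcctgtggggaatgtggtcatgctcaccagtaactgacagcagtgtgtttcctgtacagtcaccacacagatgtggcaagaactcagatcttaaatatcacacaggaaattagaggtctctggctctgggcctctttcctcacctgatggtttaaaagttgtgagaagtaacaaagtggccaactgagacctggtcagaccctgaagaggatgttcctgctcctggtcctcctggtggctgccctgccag
Prss34: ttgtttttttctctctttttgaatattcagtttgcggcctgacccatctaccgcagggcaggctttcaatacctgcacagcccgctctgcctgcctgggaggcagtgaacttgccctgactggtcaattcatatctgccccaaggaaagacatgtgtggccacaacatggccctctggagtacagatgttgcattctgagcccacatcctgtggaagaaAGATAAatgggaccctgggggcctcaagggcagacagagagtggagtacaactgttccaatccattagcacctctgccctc
Ms4a2: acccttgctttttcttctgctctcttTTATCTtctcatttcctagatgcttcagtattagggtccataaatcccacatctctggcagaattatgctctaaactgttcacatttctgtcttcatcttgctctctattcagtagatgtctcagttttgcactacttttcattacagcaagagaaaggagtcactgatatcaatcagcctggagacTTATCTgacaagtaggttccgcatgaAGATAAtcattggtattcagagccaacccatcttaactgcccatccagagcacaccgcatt
The Mcpt8 window held 0 matches, the Prss34 window 1 and the Ms4a2 window 3, and both RefSeq windows of Gata2 on chromosome 6 held 0. Of all 32851 promoter windows of this length, 18.6% held at least 1 match. A match is a stretch of letters and not a measured binding site.

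The members were chosen by their Mcpt8 count, so its values, and those of the basophil genes that vary with it, are a description. In the members it ranged between 10 and 815 UMIs in the female library, with a median of 54, and between 10 and 717 in the male library, with a median of 43. Of the members, 53 female and 78 male cells held 50 or more. Mcpt8 was also seen outside the members, since 48.0% of all female and 43.7% of all male cells held at least 1 UMI of it, but most of those held 1 to 4. The members held 77.0% of all Mcpt8 UMIs in each library. The cells with 10 to 14 UMIs, just inside the threshold, numbered 13 female and 36 male, and those with 5 to 9, just outside it, numbered 80 female and 155 male.

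The libraries held 91448433 female and 124967351 male UMIs over 4336 and 6796 cells. The median total per cell was 17514.5 UMIs in female and 13804 in male members, against 14887 and 12344 in the Multi-Lin cells with 0 Mcpt8 UMIs, so the members were somewhat deeper. Among the members, 2 female and 13 male cells lay above the 95th percentile of total UMIs of their library. No doublet caller was run, and removal of doublets before deposit is not stated in the labels. The libraries shared 45 cell barcodes, 1 of them on a member.

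The authors' labels split the members in a way that their genes followed. Multi-Lin was the label of 181 members, which is 68.4% of the female (67 cells, exact 95% interval 58.2 to 77.4) and 66.3% of the male members (114 cells, 58.7 to 73.3). These made up 9.77% of all female and 10.7% of all male Multi-Lin cells. The other 89 members, 31 female and 58 male, carried 11 other labels, led by Gran-1 with 30 cells, Myelo-1 with 13, Gran-2 with 12 and IG2 with 10. The labels do not spell out these names or say how the clusters were made, so whether Mcpt8 was among the genes used is not known.

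In summed levels of the 4 markers, the cell type name held for members labelled Multi-Lin and much less for the rest. Prss34, another basophil serine protease, stood at 8135 female and 8984 male CPM (counts per 1000000 UMIs) in the Multi-Lin-labelled members, at 469 and 1646 CPM in members with other labels, and at 11.9 and 12.5 CPM in Multi-Lin cells with 0 Mcpt8. Ms4a2 stood at 651 and 591 CPM in Multi-Lin-labelled members, 24.4 and 149 CPM in members with other labels, and 86.3 and 80.9 CPM in Multi-Lin cells with 0 Mcpt8. Gata2 stood at 316 and 325 CPM, 20.9 and 70.5 CPM, and 117 and 118 CPM in the same 3 groups. Members with other labels were thus below the Multi-Lin cells without Mcpt8 in Gata2 in both libraries, and in Ms4a2 in the female library. The neutrophil elastase gene Elane ran the other way, with 1533 and 1494 CPM in Multi-Lin-labelled members, 10762 and 7951 CPM in members with other labels, and 1290 and 1579 CPM in Multi-Lin cells with 0 Mcpt8. The 181 are called basophil-like cells in what follows, and the 89 are called Mcpt8-high cells with other labels. The name is one for sums and not for each cell: 75 of the 181 held under 10 Prss34 UMIs and 10 held 10 or more Prg2 UMIs, while 17 of the 89 held 10 or more Prss34 UMIs.

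Mcpt8 itself was similar in raw counts and differed as a share. The median was 53 female and 51 male UMIs in the basophil-like cells and 61 and 31 in the Mcpt8-high cells with other labels, while Mcpt8 made up 0.912% and 0.914% of all UMIs in the basophil-like cells and 0.293% and 0.251% in those with other labels. Depth differed too, with median totals of 14708 and 10847 UMIs in the basophil-like cells and 27133 and 22337.5 in those with other labels. The part of depth in this split was not tested. The Gran-1-labelled members, at 26877.5 and 26050.5 UMIs, had totals close to those of Gran-1 cells that were not members, at 27626.5 and 22307.

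Prss34 separated the members further, as the plot of both proteases in each cell shows. At least 10 Prss34 UMIs were held by 123 of the 270 members, 36 female and 87 male, and 106 of the 123 were labelled Multi-Lin. Among the Multi-Lin cells with 0 Mcpt8, 0 of 281 female and 1 of 444 male cells did so. Basophil-like cells with 10 or more Prss34 UMIs (33 female, 73 male) had a median of 175 and 90 Mcpt8 UMIs, and those with 0 Prss34 (19 in each library) had 21 and 20. The 2 proteases were thus high in the same cells of that group, with a summed Mcpt8 to Prss34 ratio of 1.12 in female and 1.02 in male basophil-like cells.

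**Figure D1:**
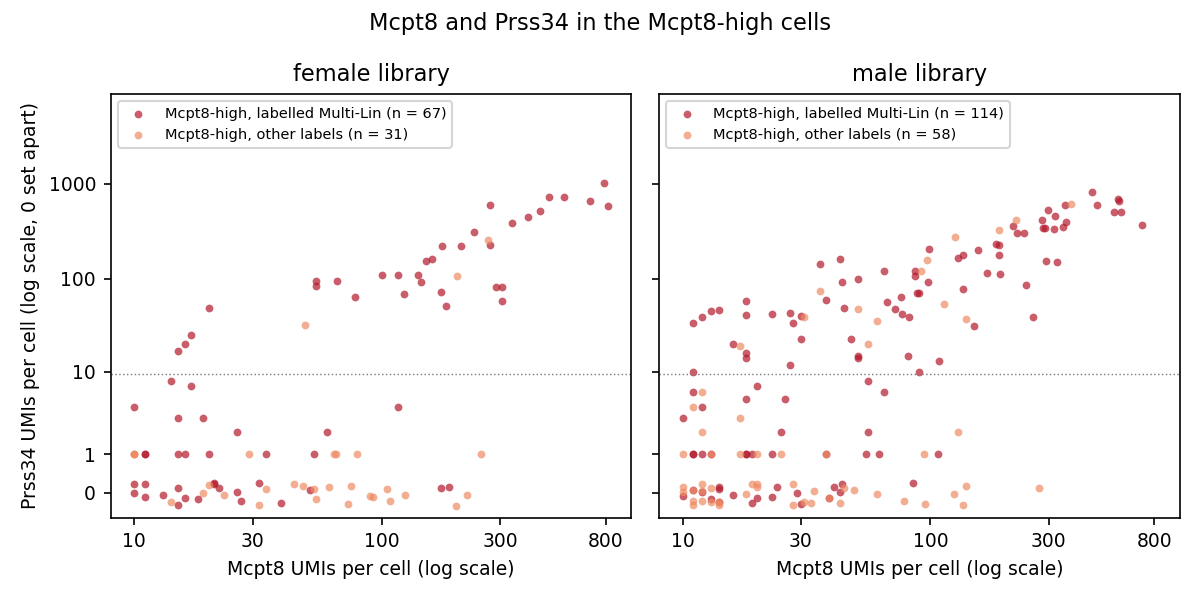
Mcpt8 UMIs per cell (horizontal, log scale) against Prss34 UMIs per cell (vertical, log scale) for the 98 female and 172 male Mcpt8-high cells. Points are coloured by whether the authors' label was Multi-Lin or another. A small constant was added to each Prss34 count, and cells without Prss34 were spread at random in a band at the bottom. The dotted line marks 10 Prss34 UMIs, and 106 of the 123 cells on or above it were labelled Multi-Lin.

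Many Mcpt8-high cells with other labels held Mcpt8 without Prss34. Prss34 was at 0 in 20 of the 31 female cells, whose Mcpt8 ranged between 14 and 221 UMIs with a median of 57.5, and in 32 of the 58 male cells, whose Mcpt8 ranged between 10 and 275 with a median of 24. Gata2 stood at 3.62 CPM in those 20 female and 36.4 CPM in those 32 male cells, and Elane at 10666 and 8647 CPM. The 12 female Gran-1-labelled members held 1036 Mcpt8 UMIs and 3 of Prss34, a ratio of 345, whereas the 18 male ones held 943 and 396, a ratio of 2.38. In the male group 1 cell with 274 Prss34 UMIs held 69.2% of them, and without it the ratio was 6.70. A Prss34 count of 0 or 1 was seen in 12 of the 12 female and 12 of the 18 male cells. In Gran-1 cells that were not members the same ratio was 3.77 for the female library and 4.50 for the male one, from cells with at most 9 Mcpt8 UMIs each.

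Free RNA puts some UMIs of an abundant transcript into every droplet, so shares of cells with a UMI are given beside a type that should lack the gene. A Prss34 UMI was found in 71.6% of female and 83.3% of male basophil-like cells, 35.5% and 44.8% of Mcpt8-high cells with other labels, 16.7% and 12.8% of Multi-Lin cells with 0 Mcpt8, and 26.1% and 17.1% of non-member cells labelled Mono. The Mono cells had median totals of 24352 and 20305 UMIs, above those of the basophil-like cells. The share in Mcpt8-high cells with other labels had exact 95% intervals of 19.2 to 54.6 in the female library, which held the Mono share, and of 31.7 to 58.5 in the male library, which did not. A few cells stood far above background, since 3 female and 14 male cells of that group had 10 or more Prss34 UMIs, against a highest count of 3 and 2 in Mono cells. With every cell thinned to 5000 UMIs the Prss34 shares were 64.2% and 75.0% of basophil-like cells, 9.68% and 32.8% of Mcpt8-high cells with other labels, and 5.39% and 4.37% of Mono cells. Gata2 was seen in 88.1% and 93.0% of basophil-like cells and 10.3% and 8.70% of Mono cells.

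Within the Multi-Lin label, the basophil genes climbed with Mcpt8, and Prss34 was low in cells with 1 to 4 Mcpt8 UMIs as in those with 0. In bins of 0, 1 to 4, 5 to 9, 10 to 14, 15 to 49, 50 to 99 and 100 or more Mcpt8 UMIs, female Prss34 was 11.9, 16.4, 29.0, 92.7, 323, 4295 and 20247 CPM. Male Prss34 was 12.5, 18.5, 60.2, 719, 1678, 4646 and 26909.7 CPM over the same bins. The step over the threshold was larger in the male library, where the bin of 10 to 14 UMIs held 19 cells, against 9 in the female library. Gata2 was 117, 79.5, 120.1, 119, 206, 442 and 483 CPM in female and 118, 80.3, 124, 196, 292, 389.7 and 412 CPM in male cells, so it rose late. Cd34, a surface glycoprotein of stem and progenitor cells, was 327 female and 291 male CPM in the first bin and 54.5 and 79.4 CPM in the last.

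Fcer1a was highest at the top of this range. It was 4.13, 2.29, 21.1, 0, 54.6, 50.5 and 805 CPM over the 7 female bins and 4.80, 2.26, 6.29, 52.7, 50.5, 92.6 and 367 CPM over the male bins. Cd200r3, an activating receptor of basophils and mast cells, reached 140.2 and 171 CPM in the last bin, against 2.07 and 0.857 CPM in cells with 0 Mcpt8. Elane rose and then fell, with its highest female value, 2496 CPM, at 10 to 14 and its highest male value, 2820.5 CPM, at 5 to 9 Mcpt8 UMIs. Prg2 was highest at 15 to 49 Mcpt8 UMIs, at 4278 female and 3096 male CPM, where 3 of 23 female cells held 1719 of 1724 UMIs and 3 of 37 male cells 1650 of 1655, and stood at 15.6 and 14.9 CPM at 100 or more. The bins of high Mcpt8 were small, 7 to 37 cells each, and cells of 1 library are not replicates, so the bins carry no test.

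**Figure D2:**
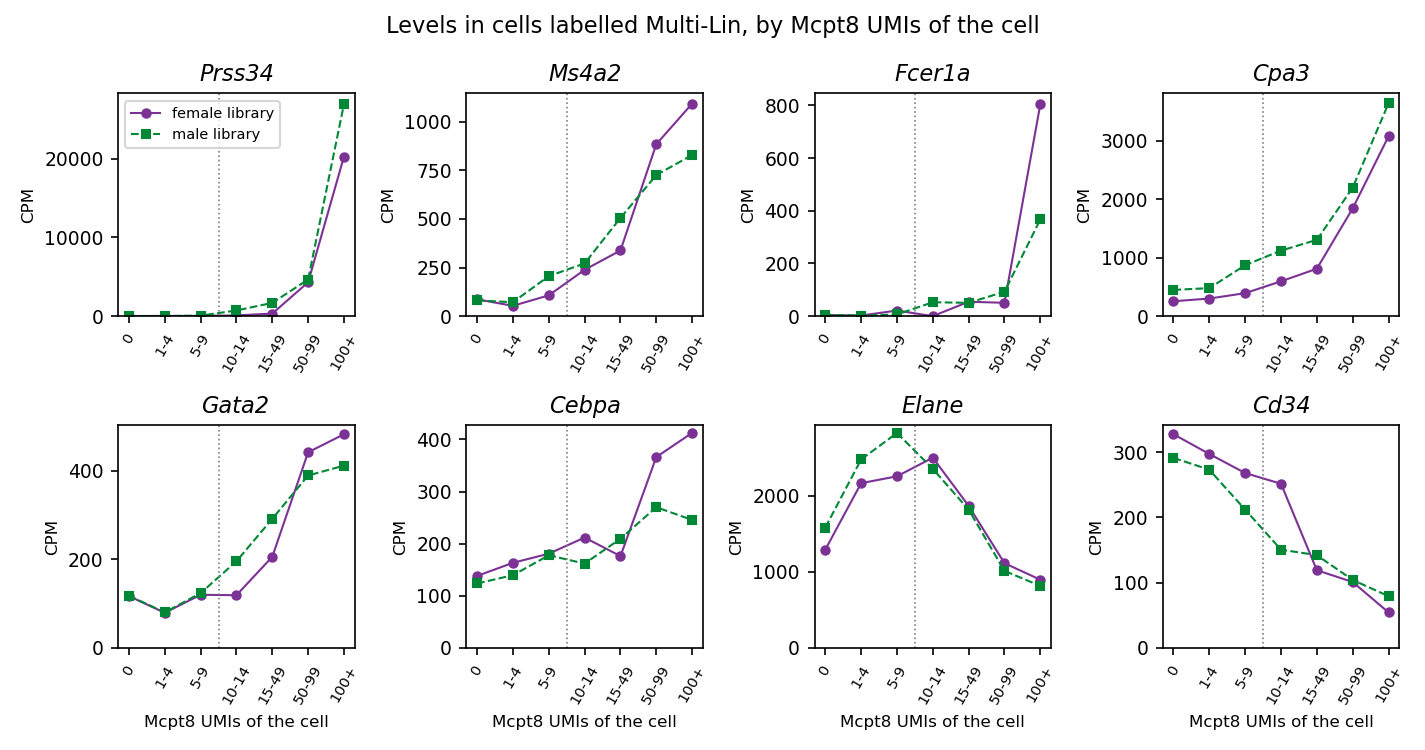
CPM of 8 genes in Multi-Lin-labelled cells (vertical) by the number of Mcpt8 UMIs of the cell (horizontal, 7 bins from 0 to 100 or more), with 1 line for each library. The dotted line marks the threshold of 10 UMIs: Prss34, Ms4a2, Fcer1a, Cpa3 and Gata2 are highest in the upper bins, and Cd34 is lowest there.

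The same order appeared cell by cell within the basophil-like cells. Spearman's rho between the shares of UMIs of Mcpt8 and of Prss34 was 0.76 over 67 female and 0.79 over 114 male cells, and with Cpa3, which encodes the granule enzyme carboxypeptidase A3, it was 0.79 and 0.68. It was 0.66 and 0.57 with Ms4a2, 0.52 and 0.38 with Gata2, and −0.48 and −0.41 with Cd34. In the Mcpt8-high cells with other labels the rho with Prss34 was 0.04 over 31 female and 0.32 over 58 male cells, and 0.41 and 0.37 with cells thinned to 5000 UMIs, against 0.76 and 0.80 in thinned basophil-like cells. All cells of a library share its depth and free RNA, and Mcpt8 is in the denominator of every share, so these values are a description.

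Summed per library and compared with Multi-Lin cells with 0 Mcpt8 UMIs, the members had higher levels of most genes of the basophil list and lower levels of most genes of multipotent progenitors. Of 9673 genes tested, 2018 (20.9%) passed an adjusted p of 0.05 in edgeR's quasi-likelihood test with Benjamini-Hochberg adjustment, with 1139 (11.8%) higher and 879 (9.09%) lower. Scaling by library totals alone moved the median log2 fold change of all genes to −0.16, against −0.02 with TMM scaling, and the split to 685 higher and 1609 lower. The test has 2 libraries and 1 residual degree of freedom. Because the libraries are paired, its p-values rest on how far the difference between the 2 groups varied from one library to the other. A common dispersion over the genes, 0.0032, also entered the test. The mice behind each library are not described further in the labels, so variation from mouse to mouse is not measured by these p-values.

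Because the 89 members with other labels stand in other clusters, genes that separate those clusters can differ from Multi-Lin cells by choice of the groups. Most genes are therefore given for all members with the test, and then for the basophil-like cells alone and the members with other labels alone, as fold changes against the same Multi-Lin cells. With the basophil-like cells alone 16.8% of 9337 genes passed (9.57% higher, 7.18% lower), and with the members with other labels alone 19.6% of 9268 (10.9% higher, 8.71% lower). Counts over a list are read beside these shares. CPM values beside fold changes are scaled by the TMM factors of the fit, while the other CPM values are not. Alox5, Ltc4s, Cyp11a1, Cd200r3, Il4, Ccl4, Ccl9, Cd63, Stx3, Anxa1, Lgals3, Lyz2, Csf2rb, Lat, Itga2b, Ikzf2, Zfpm1, Irf8, Cebpa, Elane and Manf were added to the genes named by rule after their values had been seen.

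Of the genes of granule proteases and granule content, several were higher in the members. Prss34 had 4829 female and 5742 male CPM in the members, against 11.4 and 11.9 CPM in Multi-Lin cells with 0 Mcpt8, a log2 fold change of 8.83 ± 0.06 (SE). It was 9.58 in the basophil-like cells and 6.53 in members with other labels. Cpa3 had 1022 and 1312 CPM in the members, against 243 and 426 CPM, and rose by 1.84 ± 0.07 on the log2 scale (adjusted p = 1.63e-14). It rose by 2.57 in the basophil-like cells and stood at −0.52 in the members with other labels, so its direction differed by label. Srgn, the core protein of the proteoglycan serglycin that holds proteases in granules, rose by 0.92 ± 0.04, by 1.06 in basophil-like cells and by 0.76 in the rest. Ctsg, the protease cathepsin G, rose by 1.27 ± 0.04 and by similar amounts, 1.22 and 1.35, in both kinds of member. Cd63, a granule membrane protein that reaches the surface when basophils degranulate, had 1390.3 and 1465 CPM in the members, against 371 and 422 CPM, and rose by 1.85 ± 0.05 (adjusted p = 7.65e-17), with 2.28 in basophil-like cells and 1.12 in the rest. Stx3, a syntaxin of vesicle fusion, had log2 fold changes of 1.79 in basophil-like cells and −0.85 in the rest. Of 18 tested genes of granule proteoglycan and secretion, 13 rose and 0 fell, with a median log2 fold change of 0.61, and in the basophil-like cells alone 10 rose and 0 fell, with a median of 0.39.

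All 3 chains of the IgE receptor were higher in the members. Ms4a2, the β chain, had 380.2 and 398 CPM, against 82.3 and 76.8 CPM in Multi-Lin cells with 0 Mcpt8, a log2 fold change of 2.30 ± 0.07 (adjusted p = 3.58e-16). It was 3.01 in the basophil-like cells, against 0.31 in members with other labels, where it did not pass (adjusted p = 0.101). Fcer1a, the α chain, had 191 and 93.9 CPM, against 3.94 and 4.55 CPM, a log2 fold change of 4.96 ± 0.18 (adjusted p = 2.14e-15), with 5.73 in basophil-like cells and 2.26 in the rest. The female value was the higher of the 2, and in the female library 3 of the 30 members with Fcer1a held 42.3% of its 343 UMIs. Fcer1g, the γ chain, had 649 and 627 CPM, against 204 and 229.7 CPM, and rose by 1.55 ± 0.06, by 1.87 in basophil-like cells and by 1.08 in the rest.

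Genes downstream of the receptor were listed together with its 3 chains. Of 15 tested genes of the receptor and its signalling, 5 rose and 0 fell, beside 11.8% higher and 9.09% lower of all genes tested. The median log2 fold change was 0.13, against −0.02 over all genes tested, and it was 0.10 in the basophil-like cells alone. Under library totals alone, 5 rose and 3 fell, and the median was −0.02. Beside the 3 receptor chains, the 2 that rose were the membrane adaptors Lat and Lat2. Lat had 37.8 and 36.2 CPM in the members, against 23.4 and 24.2 CPM, and rose by 0.63 ± 0.16 (adjusted p = 0.0059), with 1.31 in basophil-like cells and −1.10 in the rest. Lat2 rose by 0.61 ± 0.10, with 1.12 in basophil-like cells and −0.33 in the rest, and with 5 Mcpt8 UMIs as the threshold it was 0.01 (adjusted p = 0.951).

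Most tested genes of lipid and amine mediators rose over all members, and in members with other labels 4 of 8 rose and 2 fell. Alox5, the 5-lipoxygenase of leukotriene synthesis, had 69.5 and 74.6 CPM in the members, against 10.1 and 12.4 CPM, a log2 fold change of 2.67 ± 0.15 (adjusted p = 7.30e-12). It was 3.31 in the basophil-like cells and 1.18 in members with other labels. Its partner Alox5ap was already abundant and rose by 0.64 ± 0.07, with 0.81 and 0.42. Hdc, the enzyme that makes histamine, had 222 and 221 CPM, against 98.3 and 109 CPM, and rose by 1.09 ± 0.08, with 1.57 in basophil-like cells and 0.23 (adjusted p = 0.222) in the rest. Slc18a2, the transporter that loads monoamines into vesicles, was low, at 27.8 and 26.1 CPM against 19.3 and 17.2 CPM. Its log2 fold change was 1.27 in basophil-like cells and −1.24 in the rest. Of the 9 tested genes of eicosanoid and histamine handling, 7 rose and 1 fell, with a median of 0.77. Alox15, which is among the 9, held 0 UMIs in 1 of the compared groups. It passed the filter on low counts only through the other group, so its part in the count is a description. The gene that fell was Ltc4s, leukotriene C4 synthase, at 5.56 and 3.35 CPM against 12.3 and 7.97 CPM, and in basophil-like cells alone it did not pass (−0.37, adjusted p = 0.553).

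Of the 22 basophil genes listed, all 22 were tested, 17 rose and 2 fell, with a median log2 fold change of 1.35. The 2 that fell were the chemokines Ccl4, at −0.75 ± 0.13, and Ccl9, at −0.32 ± 0.06, and neither passed in basophil-like cells alone (adjusted p = 0.284 and 0.0625). In the basophil-like cells 18 rose and 0 fell, with a median of 1.96, whereas in members with other labels 5 rose and 7 fell of the 18 tested, with a median of −0.24. Cyp11a1, the enzyme that starts steroid synthesis, had 88.4 and 92.4 CPM in the members, against 3.28 and 3.58 CPM, a log2 fold change of 4.70 ± 0.18, with 5.41 in basophil-like cells and 2.80 in the rest. Cd200r3 had 33.9 and 36.9 CPM, against 1.97 and 0.813 CPM, and rose by 4.73 ± 0.29, with 5.47 in basophil-like cells. Csrp3, which encodes a LIM-domain protein first known from muscle, rose by 2.02 ± 0.07, to 352 and 388 CPM in the members, against 86.7 and 95.5 CPM, with 2.69 in basophil-like cells and 0.35 in the rest. The cytokine Il4 was scarce, at 10.0 and 4.85 CPM against 1.09 and 1.14 CPM, and rose by 2.61 ± 0.47 (adjusted p = 0.000279), but not in DESeq2 (adjusted p = 0.113). Cd200r3 and Il4 passed the filter on low counts only through the members, where they are high, so their rises are a description. Counts over a list that include them carry the same limit. Itga2b and Ifitm1 depended on the label, with log2 fold changes of 1.17 and 1.03 in basophil-like cells and −1.34 and −1.46 in the rest.

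**Figure D3:**
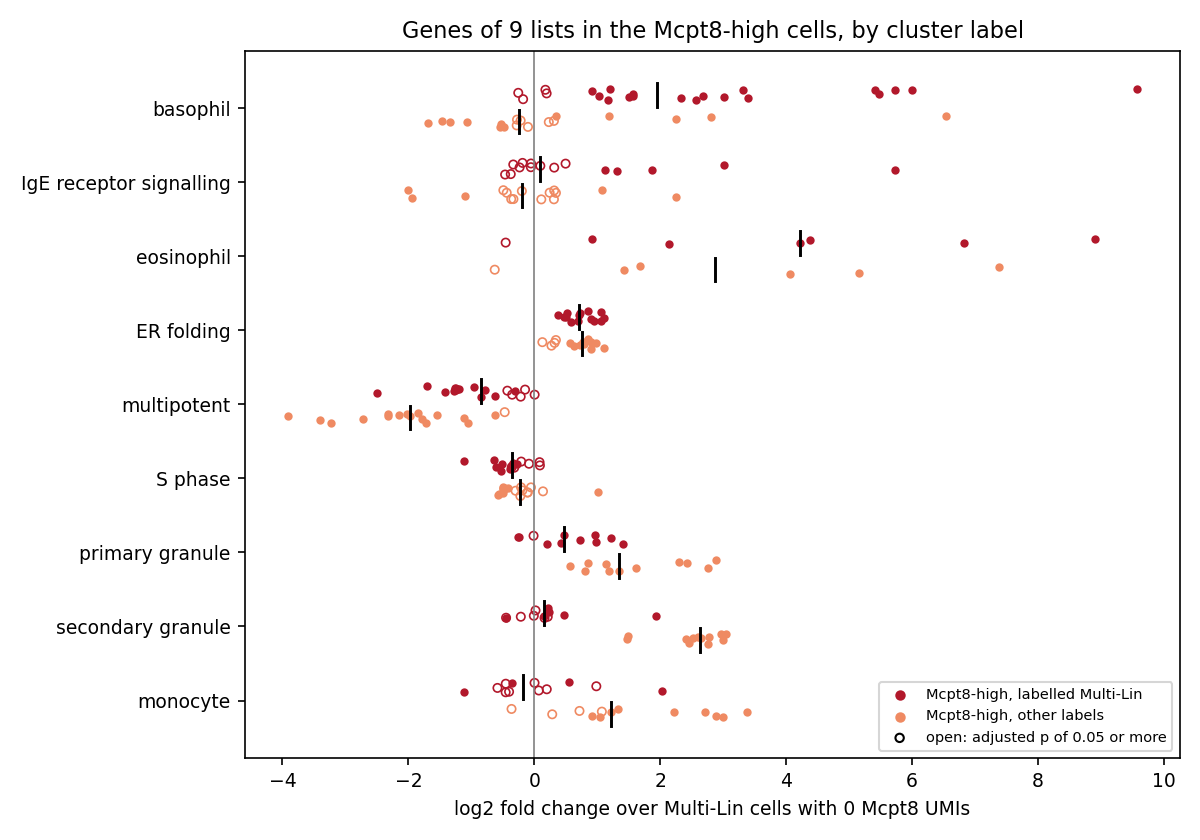
log2 fold change against Multi-Lin cells with 0 Mcpt8 UMIs (horizontal) of the genes of each list (rows), for basophil-like cells and for Mcpt8-high cells with other labels. Filled points passed an adjusted p of 0.05 in edgeR and black ticks are medians: the basophil list has a median of 1.96 in basophil-like cells and −0.24 in cells with other labels, and the secondary granule list 0.16 and 2.63.

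Transcription factors of the GATA complex moved both ways. Gata2 had 189 and 213 CPM in the members, against 112 and 112 CPM in Multi-Lin cells with 0 Mcpt8, a log2 fold change of 0.85 ± 0.08 (adjusted p = 1.91e-08). It was 1.57 in basophil-like cells and −1.07 in the rest, and with 5 Mcpt8 UMIs as the threshold it was 0.10 and no longer passed (adjusted p = 0.312). Lmo4, a LIM-only adaptor, rose by 0.88 ± 0.06, with 1.50 in basophil-like cells and −0.54 in the rest. Lmo2, the adaptor that joins GATA factors to TAL1 in blood progenitors, had 178 and 205 CPM, against 393 and 379 CPM, and fell in both kinds of member, with −1.08 in basophil-like cells and −0.89 in the rest. Ikzf2, which encodes the zinc finger factor Helios, rose by 0.55 ± 0.10, with 1.20 in basophil-like cells and −0.90 in the rest. Zfpm1, which encodes the GATA1 partner FOG1, fell to 3.34 and 3.73 CPM in the members, against 11.6 and 14.3 CPM, and fell in both kinds of member. Of 16 tested genes of this list, 7 rose and 6 fell, with a median of 0.14, and in basophil-like cells 7 rose and 4 fell, with a median of 0.28.

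Among myeloid factors, Cebpa, which encodes C/EBPα, had 233 and 189 CPM in the members, against 132 and 117 CPM, and rose by 0.75 ± 0.07 (adjusted p = 8.44e-08). It rose by 1.06 in basophil-like cells, against 0.30 (adjusted p = 0.0622) in the rest. Cebpe, a factor of granulocyte and eosinophil maturation, rose by 1.32 ± 0.08, by 0.92 in basophil-like cells and by 1.68 in the rest. Within the Multi-Lin label it stood at 75.8 female and 11.6 male CPM in cells with 50 to 99 Mcpt8 UMIs and at 23.4 and 24.8 CPM in cells with 100 or more, below the 87.3 and 90.1 CPM of cells with 0. Spi1, which encodes PU.1, stood at 0.03 in basophil-like cells (adjusted p = 0.855) and at 0.58 in the rest. Irf8, a factor of monocytes and dendritic cells, had 97.3 and 70.5 CPM in the members, against 64.8 and 61.0 CPM, and its log2 fold change was −1.11 in basophil-like cells and 1.21 in the rest. Of 12 tested genes of this list, 8 rose and 2 fell, and in basophil-like cells 5 rose and 2 fell.

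Cytokine receptor genes moved both ways. Il3ra, the interleukin-3 receptor α chain, had 82.3 and 65.2 CPM in the members, against 47.9 and 42.0 CPM, and rose by 0.70 ± 0.11 (adjusted p = 5.90e-05 in edgeR and 0.0911 in DESeq2). It rose by 1.20 in basophil-like cells and stood at −0.22 in the rest. Csf2rb, the signalling chain it shares with the GM-CSF and interleukin-5 receptors, rose by 0.66 ± 0.16 (adjusted p = 0.00416), with 1.00 in basophil-like cells and 0.15 (adjusted p = 0.746) in the rest, but did not pass in DESeq2 or without the library term. Kit, the stem cell factor receptor gene, had 35.0 and 30.9 CPM, against 57.4 and 48.1 CPM, a log2 fold change of −0.67 ± 0.13 (adjusted p = 0.00073 in edgeR and 0.349 in DESeq2), with −0.55 in basophil-like cells and −0.80 in the rest. Of 18 tested receptor genes, 7 rose and 4 fell. Of 9 tested targets and kinases of STAT5 signalling, 1 rose and 3 fell, with a median of −0.55; among those that fell was the kinase gene Pim1, at −1.12 ± 0.10, with −0.81 in basophil-like cells and −1.58 in the rest.

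Genes of multipotent progenitors were lower in both kinds of member. Of 17 tested, 0 rose and 16 fell, with a median log2 fold change of −1.27, and the medians were −0.84 in basophil-like cells, where 11 fell, and −1.98 in the rest, where 16 fell. Cd34 had 97.3 and 108 CPM in the members, against 312 and 277 CPM, and fell by 1.50 on the log2 scale (SE 0.08, adjusted p = 3.86e-12), with −1.27 in basophil-like cells and −1.79 in the rest. Sox4, a progenitor transcription factor, had 178 and 279 CPM, against 379.6 and 441 CPM, with −0.31 in basophil-like cells and −1.85 in the rest. The largest decreases among genes with a mean of at least 50 CPM included Car2, which encodes carbonic anhydrase 2, at −2.19 ± 0.10, and the protease inhibitor homologue Ctla2a, at −1.95 ± 0.08. Both fell in basophil-like cells too, by 1.73 and 1.37.

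Neutrophil granule genes differed with the label of the member. Of 12 secondary granule genes, all 12 rose over all members, with a median of 1.89, but in the basophil-like cells 5 rose and 1 fell, with a median of 0.16, against 12 rising with a median of 2.63 in the rest. The summed level of that list was 8130 and 5594 CPM in basophil-like cells and 23912 and 54221 CPM in cells with other labels, against 6939 and 5504 CPM in Multi-Lin cells with 0 Mcpt8. The list includes the calprotectin genes S100a8 and S100a9, and Anxa1 and Lyz2, so it is not one of secondary granule proteins alone. In those Multi-Lin cells S100a8 had 2429 female and 2047 male CPM and S100a9 had 1875 and 1398 CPM, scaled by the TMM factors, a large part of the sum. It was far higher in the 13 Myelo-1 members, at 234785 CPM in the 1 female cell and 128647 CPM in the 12 male cells. The 30 Gran-1 members stood at 8146 and 5913 CPM. At least 100 S100a8 UMIs were held by 13 of the 31 female and 25 of the 58 male cells with other labels, so high S100a8 was not confined to the Myelo-1 cells. S100a8, a subunit of calprotectin, rose by 0.22 in basophil-like cells and 3.0 in the rest, where 3 of 31 female cells held 55.8% of its UMIs. Ly6c2, a gene of the Ly-6C antigen, stood at 0.20 (adjusted p = 0.0853) and 3.37. Anxa1, which encodes annexin A1, was the member of that list with the largest rise in basophil-like cells, at 1.94, to 469 and 464 CPM against 122 and 121 CPM. Lyz2, the lysozyme gene of myeloid cells, was the member that fell there, at −0.45, and it stood at 1.50 in the rest. Among primary granule genes 11 of 11 tested rose over all members, with a median of 1.06, and 8 rose and 2 fell in basophil-like cells, with a median of 0.47. Elane itself rose by 2.00 ± 0.07 over all members, and by 0.20 in basophil-like cells against 2.88 in the rest. Monocyte genes followed the same split, with 2 of 12 higher and 2 lower in basophil-like cells and 9 of 13 higher and 0 lower in cells with other labels. Lgals3, which encodes galectin-3, rose in both, by 2.02 and 2.70. The part of these other cell types' genes in the all-member counts was not tested. The basophil counts are also given above for the basophil-like cells, a group that was itself named by basophil genes.

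Genes of protein folding in the endoplasmic reticulum rose in both kinds of member. Of 14 tested, 13 rose and 0 fell, with a median log2 fold change of 0.73, and in basophil-like cells all 14 rose, with a median of 0.71. Hspa5, the chaperone BiP, had 589 and 728 CPM in the members, against 346 and 378 CPM in Multi-Lin cells with 0 Mcpt8, and rose by 0.86 ± 0.06, with 0.94 in basophil-like cells and 0.79 in the rest. Manf, a secreted protein induced by folding stress, rose by 1.01 ± 0.06, with 1.06 and 0.98. Within the Multi-Lin label Hspa5 reached 872 female and 1179 male CPM in cells with 100 or more Mcpt8 UMIs.

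Cell cycle genes differed by small amounts. Of 15 S-phase genes 1 rose and 8 fell, with a median of −0.34, and in basophil-like cells 0 rose and 9 fell, with a median of −0.35. Pcna, the replication clamp, fell by 0.28 on the log2 scale (SE 0.07), with −0.34 in basophil-like cells and −0.19 (adjusted p = 0.260) in the rest. Of 15 genes of G2 and mitosis 5 rose and 0 fell, with a median of 0.39, and Birc5, which encodes survivin, rose by 0.43 ± 0.07, with 0.31 and 0.57. With cells thinned to 5000 UMIs neither gene passed, at −0.21 (adjusted p = 0.344) and 0.34 (adjusted p = 0.114). Immediate early genes went down over all members, with 2 of 13 higher and 9 lower, but in basophil-like cells 7 were higher and 2 lower. Jun was an example, at −0.19 ± 0.06 over all members, 0.22 in basophil-like cells and −0.83 in the rest. In DESeq2 the all-member difference did not pass for Birc5, Ccl4, Ccl9, Csf2rb, Ikzf2, Il3ra, Il4, Irf8, Itga2b, Jun, Kit, Lat, Lat2, Ltc4s, Lyz2, Pcna, Slc18a2, Spi1 or Zfpm1.

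Markers of other granule cells were looked for among the members. The mast cell protease genes were nearly absent: Mcpt4 was at 0, Tpsb2 was found in 1 cell with 44 UMIs, and Cma1 reached 3 or more UMIs in 3 members. The cell with Tpsb2 also held 151 Cma1 UMIs, 12 of Mcpt8, 1 of Prss34 and a CD117 antibody count of 793, and it was labelled Multi-Lin. The 18 mast cell genes summed to 383 female and 479 male CPM in the basophil-like cells, against 242 and 285 CPM in Multi-Lin cells with 0 Mcpt8. Cd3e, of T cells, was at 0 in the members, and C1qa and C1qb, of macrophages, were at most 3.17 CPM. Of the other genes of those lists, 3 lymphoid genes were tested, of which 1 rose and 1 fell, and 3 macrophage genes, of which 1 rose. The lymphoid gene that rose was Nkg7, a granule membrane gene also listed with primary granule genes, at 1.06 ± 0.07 (adjusted p = 8.94e-11). The macrophage gene that rose was the adhesion molecule Vcam1, at 25 and 4.47 CPM in the members, against 4.60 and 4.07 CPM (1.53 ± 0.38, adjusted p = 0.00601), with −0.54 (adjusted p = 0.592) in basophil-like cells and 2.46 in the rest. In the female members 3 cells held 64.3% of 45 Vcam1 UMIs, and it did not pass in DESeq2. The part of these markers in the results was not tested.

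Eosinophil granule genes were high in a few members. Of 7 tested eosinophil genes 6 rose and 0 fell, with a median log2 fold change of 4.14, but 17 members with 10 or more Prg2 UMIs, 6 female and 11 male, held 99.3% of the members' Prg2 UMIs in each library. Their Mcpt8 was low within the members, with medians of 18 and 19 UMIs, and 6 of them also held 10 or more Prss34 UMIs. In Multi-Lin-labelled members alone the log2 fold changes were 6.83 for Prg2, 4.23 for Prg3 and 4.38 for Epx, so these genes are part of the basophil-like sums too. Epx passed the filter on low counts only through the members, so its rise is a description. Alox15, also on this list, held 0 UMIs in 1 of the compared groups, so the count over the list carries the same limit. Counting by both genes, 117 members held 10 or more UMIs of Prss34 only, 11 of Prg2 only, 6 of both and 136 of neither.

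The 253 members with under 10 Prg2 UMIs, 92 female and 161 male, were compared with the 42 Prg2-high cells. Of these members 63 female and 108 male cells were labelled Multi-Lin, so the sums include Mcpt8-high cells with other labels. Of 7029 genes tested, 75 (1.07%) passed, and 42 (0.598%) were higher and 33 (0.469%) lower in the Mcpt8-high cells in edgeR's test. Prss34 had 4772 and 5435 CPM in the Mcpt8-high cells, against 28.3 and 10.3 CPM in the Prg2-high cells, a log2 fold change of 8.11 ± 0.18. Gata2 had 185 and 205 CPM, against 31.5 and 25.6 CPM, and was higher by 2.79 ± 0.22 (adjusted p = 6.66e-05). Ms4a2 had 366 and 381 CPM, against 47.2 and 76.9 CPM, and was higher by 2.56 ± 0.17 (adjusted p = 2.02e-05). Fcer1a had 588 UMIs in the Mcpt8-high cells and 0 of 722429 UMIs in the Prg2-high cells, which is at least 31.8-fold higher when 3 counts over the group are taken as the floor.

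On the eosinophil side, Prg3, a homologue of the eosinophil granule major basic protein, had 8.27 and 21.0 CPM in the Mcpt8-high cells, against 1216 and 1848 CPM in the Prg2-high cells, a log2 fold change of −6.67 ± 0.14. Epx, eosinophil peroxidase, had 2.76 and 1.84 CPM, against 243 and 713 CPM. Cebpe had 145 and 174 CPM, against 731 and 859 CPM, a log2 fold change of −2.32 ± 0.10. Ear6, an eosinophil-associated ribonuclease gene, had 0 UMIs in the Mcpt8-high cells and 53 in the Prg2-high cells, at least 109-fold lower against the same floor, and the Ear genes are near-identical copies whose reads could be split in counting. The 2 groups were chosen by Mcpt8 and Prg2, so differences in genes that vary with them follow from that choice. Fcer1a, Prg3, Epx and Ear6 were tested only through the group where they are high, so their differences are a description.

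Cpa3 differed less between the 2 groups, with 957 and 1235 CPM in the Mcpt8-high cells and 334 and 554 CPM in the Prg2-high cells (log2 fold change 1.31 ± 0.10). Genes of protein folding did not pass in either direction (0 of 14), with a median of −0.07. The 10 monocyte genes tested had a median log2 fold change of 1.34, higher in the Mcpt8-high cells, and this median carries no test. The sums include members with other labels. Against Multi-Lin cells with 0 Mcpt8, the monocyte list had a median of −0.17 in basophil-like cells and 1.21 in members with other labels. Kit stood at −0.30 (adjusted p = 0.804) and Cited2 at −0.20 (adjusted p = 0.640). The number of genes called depended on the choice of Prg2-high cells, with 131 higher and 102 lower when 5 or more Prg2 UMIs were asked for.

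**Figure D4:**
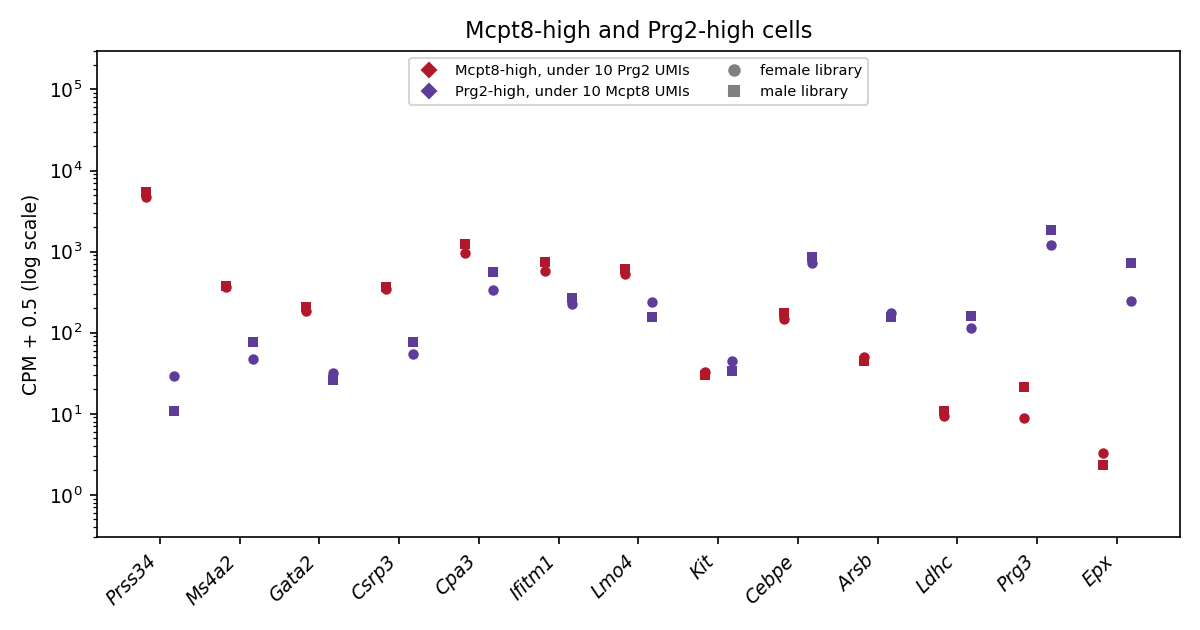
CPM plus 0.5 (log scale) of 13 genes in Mcpt8-high cells with under 10 Prg2 UMIs and in Prg2-high cells, with 1 point for each library. Prss34, Ms4a2 and Gata2 lie higher in the Mcpt8-high cells, and Prg3, Epx and Cebpe lie higher in the Prg2-high cells.

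The rule did not use the antibody counts. In basophil-like cells the median CD117 count was 153 female and 80.5 male, against 386 and 216 in Multi-Lin cells with 0 Mcpt8, which is 0.396 and 0.373 of the level there. The quartiles did not overlap in the female library (105.5 to 229, against 276 to 513) and overlapped little in the male one (51.25 to 158.5, against 144.75 to 314.25). CD117 was 213 and 181 in the Mcpt8-high cells with other labels. It was also low in Prg2-high cells, at 189 and 134, and in non-member cells labelled Mono, at 131 and 74. CD11b, an integrin chain of myeloid cells, had medians of 173 and 106.5 in basophil-like cells and 381 and 250.5 in cells with other labels, against 139 and 83. Its rise in basophil-like cells was therefore small beside the fall of CD117.

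Ly-6C and Ly-6G, surface antigens of monocytes and neutrophils, differed little in the basophil-like cells. Ly-6C had medians of 904 and 647.5 in basophil-like cells, 5369 and 2111 in cells with other labels, and 899 and 661 in Multi-Lin cells with 0 Mcpt8. Ly-6G had medians of 151 and 150 in basophil-like cells and 94 and 149 in cells with other labels, against 145 and 129.5. The 13 Myelo-1-labelled members stood apart, at 9925 in the female cell and a median of 2248 in the 12 male cells, against 275 and 303 in Myelo-1 cells that were not members. An exact permutation test of 2 libraries against 2 cannot pass 0.05, and no other test was run on the antibodies.

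**Figure D5:**
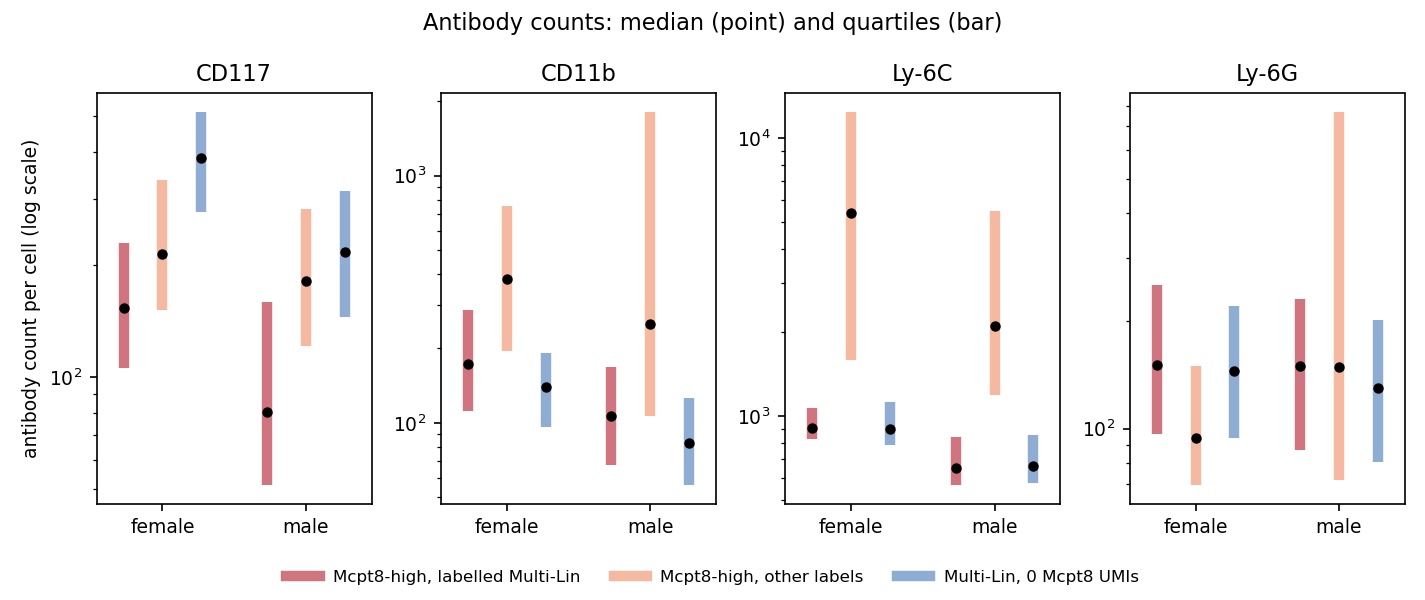
Median antibody counts per cell with quartiles (vertical, log scale) of CD117, CD11b, Ly-6C and Ly-6G in basophil-like cells, Mcpt8-high cells with other labels and Multi-Lin cells with 0 Mcpt8 UMIs, per library. In these counts CD117 is lowest in the basophil-like cells, at 153 and 80.5, and CD11b and Ly-6C are highest in the cells with other labels.

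On the deposited scale, the natural log of an antibody's share of the 4 counts, all members together were lower in CD117 by −1.01 ± 0.15 (SD, n = 2 libraries). CD11b differed by 0.27 ± 0.06, Ly-6C by 0.10 ± 0.07 and Ly-6G by −0.21 ± 0.19. A share falls when another antibody rises, and the direction of Ly-6G turned when values were centred within the cell (0.0005) or taken as the log2 ratio of medians (0.04). On the share scale CD117 differed by −0.75 female and −0.70 male in basophil-like cells. In the Mcpt8-high cells with other labels it differed by −1.89 and −1.30, so the order of the 2 kinds of member was the reverse of that in counts.

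Across other groups, Gata2 in the basophil-like cells, at 316 and 325 CPM, stood above the clusters that share GATA genes. It was 228 and 209.6 CPM in cells labelled Eryth, 205 and 166 CPM in Meg, 185 and 155 CPM in HSCP-2 and 4.74 and 5.69 CPM in Gran-1 cells that were not members. Gata1, the GATA factor of red cell and platelet precursors, ran otherwise, at 31.4 and 47.2 CPM in basophil-like cells, against 148 and 149 CPM in Eryth and 90.7 and 83.9 CPM in Meg. These levels have no test.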

How the data were processed

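Transcripts and 4 antibody tags were counted in 1 male and 1 female library loaded with 10000 cells each, with 689000000 and 676000000 reads per the labels, and the tags of both were sequenced as 1 library. The authors deposited unnormalised UMI counts (28692 gene IDs, 11132 cells), 1 of 17 cluster names per cell, and antibody counts with values on a natural log scale. Cell Ranger 2.1.0 and mm10 are named per the submitters' processing notes. No label states the annotation, the cell calling or the clustering method. All 44528 deposited natural log antibody values equalled ln((count + 1)/(sum of the 4 counts + 1)) within 1e-08.

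Cell names end in a mark for the male or the female library. IDs were matched to symbols for 28339, and the rest held 0.0230% of UMIs. Cells passed no added filter, and the lowest cell total was 4373 UMIs. UMI counts were summed per library and group, because cells are not replicates. Differences between the sums came from the quasi-likelihood test of edgeR 4.0.16 (R 4.3.3, TMM, filterByExpr, library as a covariate, 4 sums), with Benjamini-Hochberg adjustment over all genes tested and a threshold of 0.05. The library is the pairing, since both groups come from the same 2 libraries. Mcpt8, and in the second comparison Prg2 as well, stayed out of the tests. A standard error is the size of the log2 fold change divided by √F. DESeq2 1.42.0 was an alternative. The step was tested on simulated data. Intervals and floors cover counting error only. Genes were named from 24 lists (321 genes, 320 in the table) by the highest mean CPM, 4 from each of 6 lists and 2 from the others, plus the 10 largest increases and decreases with a mean of at least 50 CPM. The members, lists and rule were chosen with earlier results of these data known.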

Additional observations from a re-analysis of the deposited data

Results flagged for a closer look

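Gzmb, the granzyme B gene listed among mast cell genes, went opposite ways in the 2 libraries. It had 41.1 CPM in female members, against 8.98 CPM in female Multi-Lin cells with 0 Mcpt8 UMIs (log2 ratio 2.196), and 7.46 CPM in male members, against 56.8 CPM (log2 ratio −2.929). The difference between the libraries was not tested. In the female members 3 cells held 91.9% of the 74 UMIs, and the male Multi-Lin cells held 349 UMIs in 33 of 444 cells. Granzyme genes have close relatives whose reads can be split in counting.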

How the results depend on the processing

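The number of genes called depended on the processing. In the comparison with Multi-Lin cells, 1139 higher and 879 lower genes became 329 and 104 in DESeq2, 685 and 1609 with library totals only (added after seeing the data), and 452 and 206 with cells thinned to 5000 UMIs. Without the library pairing (no replicate block) 813 were higher and 576 lower. Against Prg2-high cells, 42 higher and 33 lower genes became 12 and 6 in DESeq2, 65 and 69 with 20 or more Prg2 UMIs, 131 and 102 with 5 or more, 126 and 72 with no filter, 67 and 66 thinned, and 100 and 100 with Multi-Lin-labelled cells only (added after seeing the data), while the fit with no replicate block gave 42 and 30. The male share labelled Multi-Lin, 66.3%, was 56.0% with 5 or more Mcpt8 UMIs and 76.8% thinned.

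Restricting the members to other labels (added after seeing the data) turned Gata2 (−1.07), Cpa3 (−0.52), Ifitm1 (−1.46), Lmo4 (−0.54), Slc18a2 (−1.24), Lat (−1.10), Lat2 (−0.33), Il3ra (−0.22), Itga2b (−1.34), Stx3 (−0.85) and Ikzf2 (−0.90). Restricting them to Multi-Lin turned Jun (0.22), Irf8 (−1.11), Lyz2 (−0.45), Vcam1 (−0.54) and Gzmb (0.18). With 5 or more Mcpt8 UMIs, Ifitm1 (−0.30), Slc18a2 (−0.10), Lat (−0.24) and Itga2b (−0.17) turned. Gzmb was 0.10 against Multi-Lin cells with 0 to 9 Mcpt8 UMIs and 2.20 without the male library (−2.93 without the female one). Thinned, Jun was 0.026, and Cited2 against Prg2-high cells 0.013. The cause was not tested.

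CD117 was −0.79 and CD11b 0.48 centred within the cell, against −0.99 and 0.65 as log2 ratios of medians, and Ly-6C was 0.31 and 0.21. Ly-6G turned, to 0.0005 and 0.038. Leaving out either library, the log share differences ranged between −1.11 and −0.90 for CD117, 0.23 and 0.31 for CD11b, 0.04 and 0.15 for Ly-6C, and −0.35 and −0.08 for Ly-6G. With 1 library left there is no residual degree of freedom, so no count of calls was made without a library.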
